A study of Mus musculus with 10 samples.

Results

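Distal H3K27me3 outside Mtf2 sites was examined in Mtf2-null CD71+Ter119+ erythroblasts, as the peaks that lay on an autosome, away from protein-coding start sites and away from bound Mtf2. A peak was a member when it did not reach into the 5 kb on either side of any protein-coding transcription start site (TSS) and shared no base with a Mtf2 peak of WT CD71+Ter119-/lo cells. Members were thus selected on the peak calls of the Mtf2-null H3K27me3 library itself and on the Mtf2 peak calls. Of the 5791 peaks in the Mtf2-null CD71+Ter119+ list, 4159 (71.8%) were members, and they covered 7.54 Mb of the list's 10.9 Mb. The other peaks were 648 distal autosomal peaks at Mtf2 sites, 322 autosomal peaks within 5 kb of a TSS and 662 peaks on X or Y. Fetal liver cells came from e14.5 embryos of the WT (Pcl2+/+) and Mtf2-null (Pcl2-/-) genotypes, where Pcl2 is another name of Mtf2, and were sorted into CD71+Ter119-/lo pro-erythroblasts and CD71+Ter119high erythroblasts (CD71+Ter119+ below). The embryos derived from gene-targeted C57Bl/6 ES cells, the deletion was constitutive, and 500000 cells entered each precipitation. The series design text opens by naming H3K4me3, but its later lines and the antibody labels give H3K27me3, which is used here. H3K27me3 was precipitated from both fractions of both genotypes and Mtf2 from both WT fractions, and each peak list was called against an IgG library of the same cells. Each of these 10 libraries stood alone in its condition, so peaks are counted and measured without a test between conditions. Cell identity rests on the sort, since no expression was measured in these files.

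H3K27me3 is trimethylation of lysine 27 on histone H3, a repressive mark that PRC2 writes through its subunits Ezh2 or Ezh1. Mtf2 is an accessory subunit that brings PRC2 to unmethylated CpG-rich DNA, and in most cells the strongest H3K27me3 lies over CpG-rich promoters of silent developmental genes, while lower levels spread over wide intergenic stretches. Much of that intergenic DNA in the mouse consists of interspersed repeats, including long, AT-rich elements that are usually truncated at the 5′ end. Short reads from near-identical copies of a repeat cannot be assigned to 1 copy with certainty, so a peak on such sequence names a type of sequence more surely than a place.

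Many members lay on such repeated DNA and others did not, and the sequences under 4 of them show both. Each line holds 300 bases of the plus strand of NCBIM37 (the mm9 assembly) centred on a summit, the base with the most tags. Capitals mark bases that lie in a 25-base word (25-mer) found at 100 or more places on the autosomes, and words of a single repeated A or T were not counted. The peaks with the highest score, the greatest length and the highest fold enrichment are given first. The last is the peak over 5 kb that shared most sequence with the other peaks over 5 kb and was chosen after its sequence was seen.
Highest score, chr8:105604790-105605089: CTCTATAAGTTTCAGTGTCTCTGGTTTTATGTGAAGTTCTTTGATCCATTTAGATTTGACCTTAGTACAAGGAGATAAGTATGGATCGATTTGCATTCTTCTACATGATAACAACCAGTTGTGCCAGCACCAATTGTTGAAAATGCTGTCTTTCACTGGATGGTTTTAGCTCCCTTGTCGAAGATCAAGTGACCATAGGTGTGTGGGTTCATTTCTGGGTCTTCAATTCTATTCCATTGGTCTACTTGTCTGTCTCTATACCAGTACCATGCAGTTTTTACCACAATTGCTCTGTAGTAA
Longest, chr4:145569427-145569726: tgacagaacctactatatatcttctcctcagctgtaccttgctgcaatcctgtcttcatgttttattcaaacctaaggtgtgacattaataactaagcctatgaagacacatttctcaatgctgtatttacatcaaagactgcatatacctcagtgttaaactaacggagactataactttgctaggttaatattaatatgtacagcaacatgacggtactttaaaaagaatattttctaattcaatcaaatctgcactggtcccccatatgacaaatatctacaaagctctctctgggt
Highest fold enrichment, chr10:71759858-71760157: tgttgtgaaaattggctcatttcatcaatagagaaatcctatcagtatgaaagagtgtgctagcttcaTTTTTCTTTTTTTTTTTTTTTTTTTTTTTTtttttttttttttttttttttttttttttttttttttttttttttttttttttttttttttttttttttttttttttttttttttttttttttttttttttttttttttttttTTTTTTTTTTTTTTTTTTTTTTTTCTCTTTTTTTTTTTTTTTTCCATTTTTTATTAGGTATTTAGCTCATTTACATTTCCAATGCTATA
Most shared long peak, chr8:68278002-68278301: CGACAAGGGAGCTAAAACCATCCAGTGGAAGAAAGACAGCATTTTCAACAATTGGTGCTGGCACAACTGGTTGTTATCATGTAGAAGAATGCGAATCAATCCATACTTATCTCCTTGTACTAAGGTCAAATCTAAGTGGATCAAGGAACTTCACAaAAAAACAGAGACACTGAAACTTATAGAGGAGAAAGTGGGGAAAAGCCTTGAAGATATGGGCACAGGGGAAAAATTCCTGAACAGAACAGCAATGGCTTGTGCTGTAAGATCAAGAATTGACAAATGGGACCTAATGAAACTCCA

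All 300 bases at the summit of the highest-scoring member were repeated sequence, and the median 25-mer of that stretch occurred at 8465 autosomal places. The summit of the most shared long peak, in an intron of *March1* on chromosome 8, had 299 repeated bases of 300 and a median of 9701 places. These summits lie far apart on chromosome 8, yet the sequences hold 54 25-mers in common and an identical run of 62 bases, read on opposite strands. The summit of the longest member had no base in a word at 100 places, and its 25-mers had a median of 8 places. The summit with the highest fold enrichment fell on a run of T with 13.0% GC, of which 119 bases were repeated in this sense.

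Over all members, the 1 kb window around the summit had a median of 83.5 places per 25-mer (95% interval 74.5 to 93.0, n = 4159 windows). A window was called repeated when its median 25-mer had at least 100 autosomal places and single-copy when that median was under 2. By this measure 1991 windows (47.9%, 95% Wilson interval 46.4 to 49.4%) were repeated and 779 (18.7%, 17.6 to 19.9%) were single-copy. In a regular grid of 23934 windows, 1 every 100 kb of the autosomes, 5.56% were repeated and 86.2% were single-copy. The H3K27me3 peaks of WT CD71+Ter119+ cells lay mostly on single-copy sequence, with 1.66% repeated and 93.2% single-copy among 4456 autosomal windows. In Mtf2-null CD71+Ter119-/lo cells 2.78% of 1331 windows were repeated, and in WT CD71+Ter119-/lo cells 47.8% of 4695 were. Members at the upper extreme reached a median of 13516 places.

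The distal peaks at Mtf2 sites were more repeated than the members. Of these 648, 560 (86.4%, 83.6 to 88.8%) were repeated and 17 were single-copy, with a median of 3550 places. Of the 322 peaks near a TSS, 112 (34.8%, 29.8 to 40.1%) were repeated. The Mtf2 lists themselves lay on repeated sequence in 64.3% of 25805 windows in CD71+Ter119-/lo cells and in 71.7% of 4771 in CD71+Ter119+ cells. The members and the Mtf2-site peaks were split by overlap with the CD71+Ter119-/lo Mtf2 list, so the difference between them is partly set by the definition. Windows of 1 library are not replicates, and the intervals cover counting error only. The share of windows in each class of places is plotted by list, without the Mtf2-null CD71+Ter119-/lo H3K27me3 and CD71+Ter119+ Mtf2 lists. No shift with genotype can be read from it, as the genotypes differed in opposite directions in the 2 fractions.

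**Figure D1:**
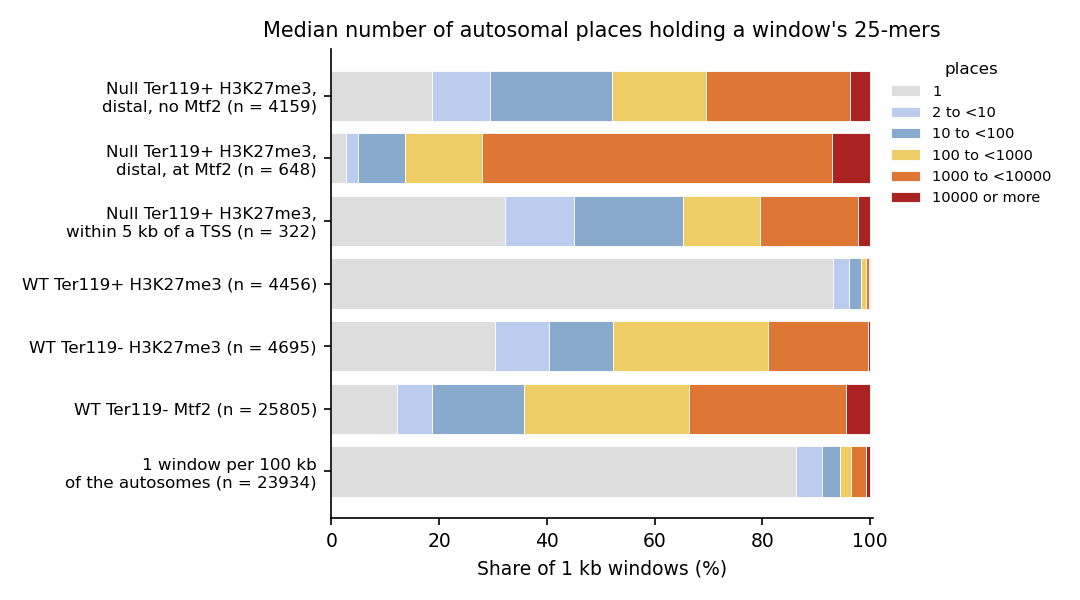
Share of 1 kb windows (horizontal axis, %) by the median number of autosomal places at which their 25-mers occur (colours), for 6 sets of summit windows and a regular grid of the autosomes. The members (top bar) had 18.7% single-copy windows, the WT Ter119+ H3K27me3 peaks 93.2% and the grid 86.2%.

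Sequence of a single repeated element was found under many members, in a share that depends on how much of it is asked for. Around the most shared long peak (chr8:68274121-68279579, 5459 bases, 375 tags, 6.52-fold enrichment), repeated 25-mers began at base 68273699 and ended at 68279768, with a median of 1 place on both flanks. This stretch of 6070 bases has 40% GC and contains the whole peak. Read in the plus direction, its 25-mers occurred at a median of 18 places in the first 250 bases, at 2829 in bases 251 to 500 and at 16617 in bases 5751 to 6000. No repeat annotation was used, so the element is named here only by its position. Of the 4159 members, 2857 (68.7%) held at least 50 of its 25-mers, 1396 in the same orientation and the others reversed, which is close to an even split between strands. In the 1 kb summit window, 2658 members (63.9%, 62.4 to 65.4%) held that many, against 6.47% of the grid windows (6.16 to 6.79%). The element was chosen among the members over 5 kb for the sequence they share, so part of this difference is set by that choice. With at least 200 of the 25-mers asked for, the share of member windows was 27%, and with at least 10 it was 76.4%, both limits being set after the data were seen. The same count was reached by 87.5% of the distal peaks at Mtf2 sites, 41.6% of the peaks near a TSS, 31.0% of the Mtf2 peaks and 8.80% of the H3K27me3 peaks of WT CD71+Ter119-/lo cells, and 1.91% of the H3K27me3 peaks of WT CD71+Ter119+ cells.

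The words of the element that recur most among the members are shown, although each was held by a minority of them. These are the 3 most widely held 25-mers that lie at least 500 bases apart on it, written in its orientation, with every base part of the shared word.
Base 2091 of the element: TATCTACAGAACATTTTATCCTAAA
Base 3941 of the element: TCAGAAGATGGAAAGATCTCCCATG
Base 5135 of the element: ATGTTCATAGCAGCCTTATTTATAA
The first was present in 677 members (16.3%) and at 12058 autosomal places. The second was present in 694 members (16.7%) and at 17709 places, and the third in 707 members (17.0%) and at 30048 places. Counted in 1 kb windows only, the third word was held by 480 member windows (11.5%) and by 316 grid windows (1.32%). The words were picked for recurring among these members, so a higher share than in the grid is built in by that choice.

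Members covered the element almost from end to end. Between 985.5 and 1190 members covered each 250-base step from base 1001 to 5250, whereas the first 250 bases had a median cover of 0 members and bases 5751 to 6000 one of 378. Summits could be placed on the element in 2746 members, of which 1641 (59.8%) fell past the middle, on the side with more genomic copies. The fullest step, bases 5251 to 5500, held 261 summits, and a second rise reached 171 summits at bases 1501 to 1750. From bases 1001 to 1250 to bases 5001 to 5250, genomic copies rose from 3582 to 12702 while the members covering went from 985.5 to 1072, as the profiles of copies, covering peaks and summits show.

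**Figure D2:**
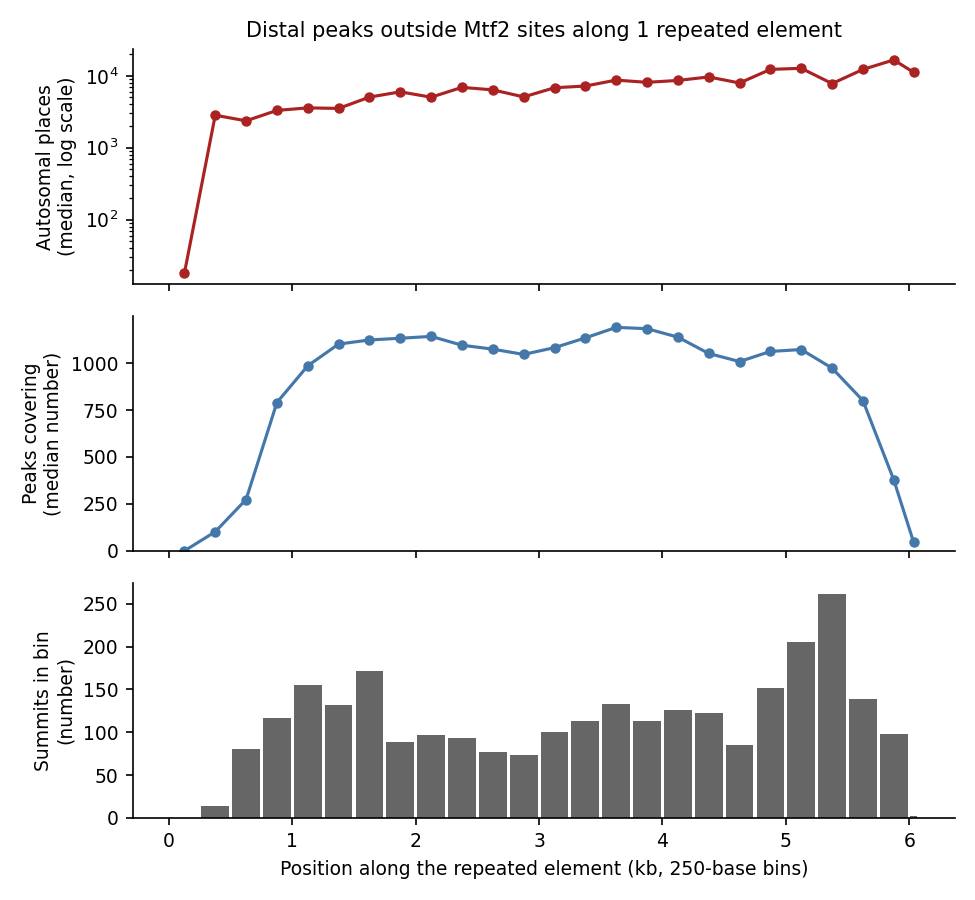
Position along the 6070-base repeated element (horizontal axis, kb) against the median number of autosomal places of its 25-mers (top, log scale), the median number of members covering each 250-base step (middle) and the number of member summits in the step (bottom). Copies rise from 2829 at bases 251 to 500 to 16617 at bases 5751 to 6000, while about as many members cover the steps between 1 and 5 kb. A member covers all bases between its trimmed outer matches, gaps included.

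Only a small part of the element's copies lay under a member. Runs of its 25-mers, joined across gaps of up to 300 bases, gave 69485 copies that covered 5.54% of the autosomes, and 10823 of them were at least 5 kb long. Members touched 3102 of all copies (4.46%) and 926 of the long ones (8.56%, 8.04 to 9.10%). Seen from the list, 2891 members (69.5%) touched a copy and 960 (23.1%) a long copy. Before the Mtf2 and TSS filters, Mtf2-null CD71+Ter119+ peaks touched 12.3% of the long copies, against 0.0554% (6 copies) for H3K27me3 in WT CD71+Ter119+ cells and 0.0370% (4 copies) in Mtf2-null CD71+Ter119-/lo cells. H3K27me3 of WT CD71+Ter119-/lo cells touched 1.83% of the long copies, and the Mtf2 lists of CD71+Ter119-/lo and CD71+Ter119+ cells touched 46.9% and 5.55%. Depth differed between these libraries, with 67169672 unique tags for the Mtf2-null CD71+Ter119+ H3K27me3 library against 30054186 for its WT counterpart, and its tags outnumbered those of its IgG library by 3.25 times against 2.43 times in WT. The part of depth in these shares was not tested.

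Longer members held more repeated sequence. The median member was 1362 bases long (95% interval 1330 to 1395), the shortest 550 and the longest 12429. Up to 1 kb there were 1073 members (25.8%), between 1 and 1.5 kb 1262 (30.3%), between 1.5 and 2.5 kb 938 (22.6%), between 2.5 and 5 kb 775 (18.6%) and over 5 kb 111. Those 111 domains were 2.67% of the members (2.22 to 3.20%), close to the 2.99% over 5 kb in the whole list, and they held 8.35% of the members' bases. The share of repeated windows rose from 23.5% up to 1 kb to 46.3%, 56.9%, 67.6% and 87.4% in the successive classes, and the median number of places rose from 2 to 1830. Single-copy windows were 49.6% of the members up to 1 kb and none of the 111 domains. GC content fell from a median of 41.0% up to 1 kb to 37.6% between 2.5 and 5 kb and was 38.2% in the domains.

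**Figure D3:**
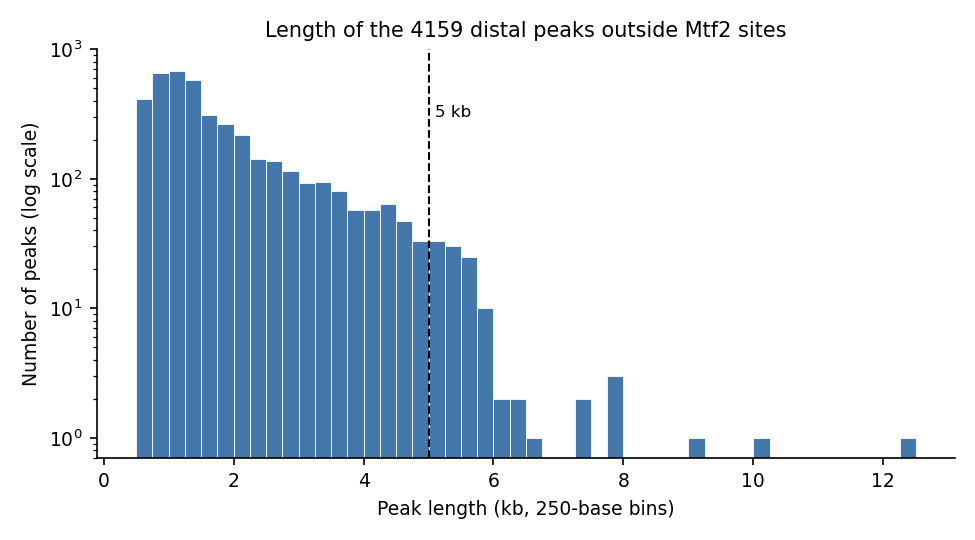
Number of members (vertical axis, log scale) by peak length in 250-base bins (horizontal axis, kb), with a dashed line at 5 kb. Counts are highest just above 1 kb and fall sharply past 6 kb, with 98 of the 111 domains between 5 and 6 kb and 13 above 6 kb.

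Enrichment hardly changed with length. The median fold enrichment over IgG was 5.19 (5.15 to 5.25) over all members, with a range of 2.91 to 23.85, and lay between 4.92 and 5.62 in each length class. Tag density rose modestly, from a median of 55.4 tags per kb up to 1 kb to 68.7 tags per kb in the domains. The median member held 83 tags, with a score (minus 10 times log10 of the peak's p) of 61.60 and the highest FDR at 1.16%. The median was 5.50 for repeated members, 5.39 for single-copy members and 4.78 for those between these classes. These values come from the measurement that called the peaks, so they describe the members and support nothing.

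The domains over 5 kb had a median length of 5427 bases, and 98 of the 111 were between 5 and 6 kb. Over whole domains the median 25-mer had 905 places, and 95 domains (85.6%) were repeated by the measure above. Held against one another, a median of 45.9% of a domain's 25-mers was found in at least 10 of the domains. At least 50 of the element's 25-mers were found in 109 of the domains, and in 51 the match spanned at least 80% of the element. Over members of all lengths 68.7% held that many. The element was taken from the domain that shared most sequence with the other domains, so its matches among them are partly set by that choice. The longest stretch free of stop codons was a median of 365 codons, and 2 domains had an open stretch of over 1000 codons, up to 1260. Domains were found on all 19 autosomes, with 14 on chromosome 5, 13 on chromosome 3 and 12 on chromosome 1. Of the summits, 90 were in no gene, 21 in an intron and 0 in an exon, which allows up to 3 of the 111. None of the domains shared a base with an H3K27me3 peak of the other cells, which again allows up to 3 of the 111. Over the whole list the shares were 0.484% for WT CD71+Ter119+, 0.708% for Mtf2-null CD71+Ter119-/lo and 0.794% for WT CD71+Ter119-/lo H3K27me3. So few would be touched at these shares that no absence particular to the domains can be read. A Mtf2 peak of CD71+Ter119+ cells touched 6 of the 111 domains, against 1.81% of the whole list.

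The longest domains differed from the typical ones. The 2 over 10 kb, chr4:145565663-145578091 in *2610036A22Rik* and chr5:93929253-93939327 in *Gm16427*, had low fold enrichments of 3.5 and 3.04 but the most tags, 1076 and 942. Their 25-mers had medians of 5 and 7 places, and few of them (2.55% and 2.96%) were found in at least 10 of the domains. Both thus held mostly sequence present in a handful of copies, and so did the tenth in length, chr5:95544008-95550475 near *Gm7942*, with a median of 4 places. The third, chr6:57284060-57293164, was 9105 bases long at 7.03-fold enrichment, had a median of 2789 places and lay 11.7 kb from *Vmn1r16*, a vomeronasal receptor gene. The other 6 of the 10 longest were between 6513 and 7970 bases, with 429 to 680 tags and 3.75-fold to 5.63-fold enrichment. Their nearest start sites were those of *Socs6*, *4930467E23Rik*, *Chi3l3*, *Mrgprb2*, *Olfr338* and *Iigp1*.

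The members with the highest fold enrichment were near the typical length. The 5 highest, at 16.24-fold to 23.85-fold, were 1205 to 1267 bases long and held 64 to 102 tags. The first, chr10:71759413-71760641, lay 358 kb from *Zwint*, and the fifth lay in an intron of *Cdh10*, which encodes a cadherin of neurons. Their windows ranged from single-copy (chr4:144078343-144079547, 25.3 kb from *Aadacl3*) to a median of 5380 places (chr3:35185541-35186784). The 5 highest scores ran from 207.52 to 238.76, led by chr8:105604317-105606281, 215 kb from *Gm8730*, with 135 tags and a median of 10254 places. One of these, chr13:14494535-14498017, lay in an intron of *Hecw1*, a ubiquitin ligase gene.

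CpG-rich sequence was not found at the summits. The median GC content of the 1 kb windows was 38.7% (38.6 to 38.9%) and the median observed over expected CpG ratio was 0.151 (0.148 to 0.154), against 41.8% and 0.161 in the grid. No member window met the limits of a CpG island (GC of at least 50% and a ratio of at least 0.6), which allows a share of up to 0.0721%. Among the H3K27me3 windows of WT CD71+Ter119+ cells 2115 of 4456 (47.5%) met them, with a median GC content of 57.2%. The WT set holds all autosomal peaks, including those within 5 kb of a TSS, whereas the members exclude these. In the Mtf2-null list itself, 0 of 322 windows near a TSS and 0 of 648 distal windows at Mtf2 sites met the limits. Shares below 0.932% and 0.463% could have been missed there. The absence of such windows is thus not particular to the members. A GC content of 50% was reached by 7 members and 2910 of these WT windows.

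Few members shared a base with a peak called in other cells. A base was shared with an H3K27me3 peak of WT CD71+Ter119+ cells by 20 members (0.481%, 0.312 to 0.742%), against 0.484% of the whole Mtf2-null list, and these 20 WT peaks were 0.445% of theirs. Peaks of Mtf2-null CD71+Ter119-/lo cells touched 27 members (0.649%, list 0.708%), and 30 of those peaks were involved, or 2.13% of theirs. Peaks of WT CD71+Ter119-/lo cells touched 18 members (0.433%, list 0.794%), or 0.361% of theirs, and Mtf2 peaks of CD71+Ter119+ cells touched 63 members (1.51%, list 1.81%), or 1.19% of theirs. The lists compared differ in quality, with an FDR of 100% for every peak of Mtf2-null CD71+Ter119-/lo cells, 6.94% to 100% for CD71+Ter119+ Mtf2, up to 100% for WT CD71+Ter119-/lo cells and up to 33.9% for WT CD71+Ter119+ cells. Peaks absent from a list are not shown to lack the mark, since the other H3K27me3 libraries were shallower, at 18945784 to 37026535 unique tags. Single-copy members made up 15 of the 20 touched by WT CD71+Ter119+ H3K27me3 and 15 of the 27 touched by Mtf2-null CD71+Ter119-/lo H3K27me3. They made up 6 of the 18 touched by WT CD71+Ter119-/lo H3K27me3, against 18.7% of all members. Of the 63 touched by CD71+Ter119+ Mtf2, 3 were single-copy and 47 repeated, against 47.9% repeated over all members. The 3 H3K27me3 lists were themselves 93.2%, 83.9% and 30.3% single-copy in this order, and the Mtf2 list was 71.7% repeated. These splits are therefore not read as a trait of the members.

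**Figure D4:**
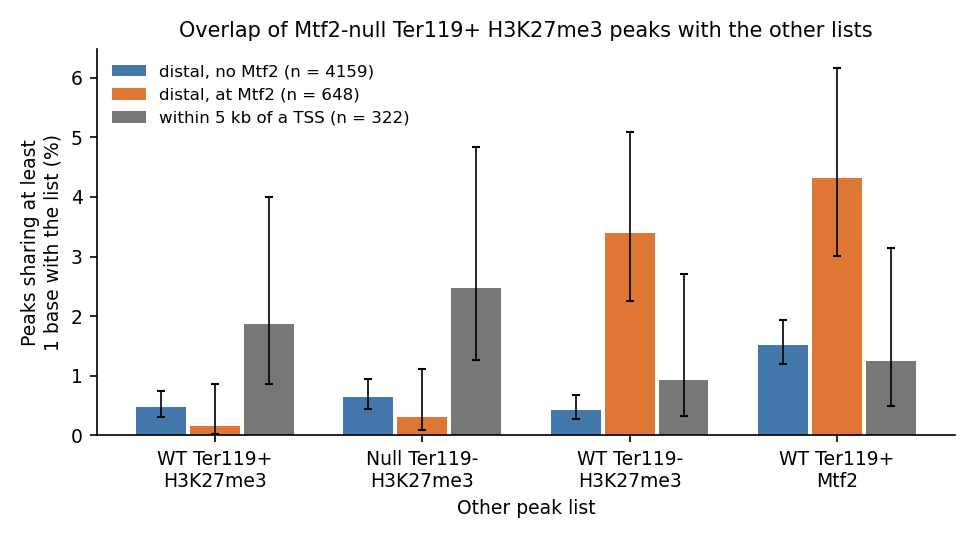
Share of Mtf2-null Ter119+ H3K27me3 peaks (vertical axis, %) that share at least 1 base with each of 4 other peak lists, for members (blue), distal peaks at Mtf2 sites (orange) and peaks within 5 kb of a TSS (grey), with 95% Wilson intervals. Members were at 0.481%, 0.649%, 0.433% and 1.51% from left to right.

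The highest-scoring shared members are given by position. The first shared with WT CD71+Ter119+ H3K27me3, chr10:77300145-77301491, had 915 of its 1347 bases in common and lay in an intron of *C330046G03Rik*, at single-copy sequence. The next were 36.0 kb from *Smndc1* and 69.2 kb from *Rufy1*, also single-copy. With Mtf2-null CD71+Ter119-/lo cells, chr9:89853970-89858538 shared 2906 of its 4569 bases in an intron of *Rasgrf1*, which encodes a Ras exchange factor and is imprinted in mouse. A member 45.1 kb from *Tes*, chr6:16969410-16970864, was touched both by H3K27me3 of WT CD71+Ter119-/lo cells (957 bases) and by Mtf2 of CD71+Ter119+ cells (865 bases).

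Most members were intergenic. The summit lay in no annotated gene in 3214 members (77.3%, 76.0 to 78.5%), in an intron in 941 (22.6%) and in an exon in 4 (0.0962%). The share in no gene was 76.5% in the whole list and 77.0% among distal peaks at Mtf2 sites, so it does not set the members apart. The median distance to the nearest protein-coding TSS was 96029 bases (88029 to 101780), and 589 members (14.2%) were over 500 kb away. Repeated windows were 49.8% of the summits in no gene and 41.7% of those in introns. Members were spread over the genome, with 72.6% of 2482 windows of 1 Mb holding at least 1. Chromosomes held between 1.11 members per Mb (chromosome 11) and 2.06 per Mb (chromosome 3), and neighbours on a chromosome were a median of 322 kb apart. The gaps between neighbouring protein-coding genes that held most summits were *Otol1* to *Sis* on chromosome 3 with 17 in 2.86 Mb and *Dsel* to *Cntnap5a* on chromosome 1 with 15 in 3.82 Mb. A further 4 gaps held 12, including *Fstl5* to *Gm5277* on chromosome 3.

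Genes that held summits were long. Of 21418 autosomal protein-coding genes, 675 (3.15%) had a summit in the gene body, 549 of them with 1. The share was 0.566% of genes up to 50 kb, 7.84% from 50 to 200 kb, 24.3% from 200 to 500 kb and 60.6% (53.5 to 67.3%) over 500 kb. Per Mb of gene body, the density ran from 0.423 summits in the shortest class to 1.33 in the longest, against 1.68 per Mb of all autosomes. No member can lie within 5 kb of a TSS by definition, so short genes (median 9.89 kb in the shortest class) had little body left to hold one. The rise of share and density with gene length is thus partly set by the definition. *Magi2*, which encodes a synaptic scaffold, held the most, 8 summits in 1478 kb on chromosome 5. *Sntg1* (a syntrophin gene) and *Csmd1* (a complement regulator expressed in brain) held 5 each. *Myo18b* (an unconventional myosin of muscle) held 4 in 207 kb, or 1.93 per 100 kb, and *Lrrtm4* (a synapse organizer) held 4 in 791 kb.

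**Figure D5:**
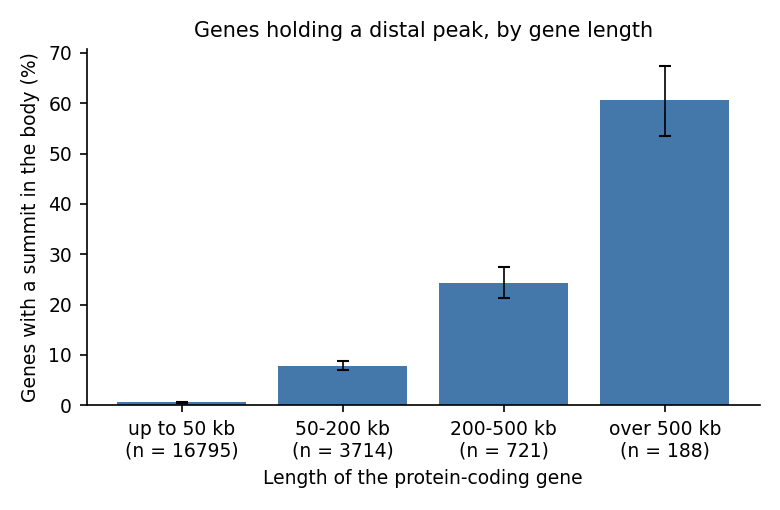
Share of autosomal protein-coding genes with at least 1 member summit in the gene body (vertical axis, %) by gene length (horizontal axis), with 95% Wilson intervals. The share rose from 0.566% of genes up to 50 kb to 60.6% of genes over 500 kb. Part of this rise is set by the definition, which leaves out peaks within 5 kb of a TSS.

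Gene families were read against the 3.15% of all genes and against their length. Neuronal adhesion genes of the contactin and neurexin families had a summit in 10 of 18 genes (55.6%, median length 506 kb), including *Cntn5*, *Cntn6* and *Cntnap2* with 3 each. Glutamate receptor genes had one in 9 of 26 (34.6%, median 279 kb), including *Grm7* with 3. Potassium channel genes had one in 12 of 94 (12.8%), led by *Kcnip4*, a channel-interacting protein gene, with 3, leucine-rich synaptic adhesion genes in 4 of 34 (11.8%), cadherins in 6 of 57 (10.5%), axon guidance genes in 7 of 72 (9.72%) and GABA receptors in 1 of 16 (6.25%). All genes held 0.884 summits per Mb of gene body, those up to 50 kb 0.423 and those over 500 kb 1.33. Cadherins held 0.782 (median length 22.5 kb), GABA receptors 0.872 (89.6 kb) and axon guidance genes 0.923 (57.5 kb). Contactins and neurexins held 1.53, potassium channels 1.54 (28.9 kb), glutamate receptors 1.99 and leucine-rich synaptic adhesion genes 2.76 (20.3 kb). These medians cover all genes of a family, with or without a summit. The 4 leucine-rich genes with a summit were 165 to 1313 kb long, and the potassium channel genes with one 56.0 to 1135 kb. Their densities are therefore not to be set beside the 0.423 of genes up to 50 kb.

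Further families, of short median gene length, are set beside the 0.566% and 0.423 summits per Mb of all genes up to 50 kb. They also hold longer genes, so that class is not a like baseline for them. Olfactory receptor genes had a summit in 1 of 1106 (0.0904%, 0.520 summits per Mb), vomeronasal receptor genes in 7 of 327 (2.14%, 1.91 per Mb) and *Zfp* zinc finger genes in 7 of 362 (1.93%, 0.692 per Mb). The olfactory gene with a summit was 156 kb long, and the vomeronasal ones were 24.5 to 154 kb. The *Zfp* genes with a summit were 28.9 to 409 kb long, most of them over 50 kb. Among all genes the share was 7.84% from 50 to 200 kb and 24.3% from 200 to 500 kb. Median lengths were 0.960 kb for olfactory and 1.09 kb for vomeronasal receptor genes. A body of that length lies wholly within 5 kb of its TSS, where no member can lie by definition. Erythroid genes, which cover haemoglobin, haem synthesis, the red cell membrane and erythroid transcription factors, had 0 of 39, and genes of PRC2 had 0 of 10. At 3 counts these allow up to 3 genes in either list, so no depletion can be read from them.

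The peaks just inside and just outside the definition are given as values. The members nearest to a TSS ended 5003 bases from *Ctnna3* and 5017 bases from *Vmn1r69*, with 4.9-fold and 4.69-fold enrichment. The nearest peaks outside were 4965 bases from *Akt2* and 4957 bases from *Rps10*, at 9.31-fold and 5.39-fold. The members nearest to a Mtf2 peak were 4 bases (chr1:7271685-7275811) and 8 bases (chr16:7754825-7756145) from it, at 6.06-fold and 7.5-fold. The 2 peaks that overlapped a Mtf2 peak least shared 15 and 19 bases with it and were enriched 7.72-fold and 8.45-fold. Mtf2 peaks lay within 100 kb of 3540 members (85.1%), within 10 kb of 999 (24%) and within 1 kb of 157 (3.77%). That Mtf2 list held 28918 peaks covering 55.8 Mb, and no share over the grid stands beside these. Neither nearness nor distance can thus be read from them.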

How the data were processed

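ChIP-seq peak lists of 6 ChIP libraries were used, and the 4 IgG libraries entered through the authors' peak calls. The submitters' processing notes name Bowtie2 2.2.3, MACS 1.3.7 and mm9. Per the file headers, MACS was run with its p limit at 1e-05, band width 300, model fold 32 and tags of 25 bases. Alignment names in the headers carry the words very-sensitive and masked. What was masked, whether replicates were pooled and how reads with several equally good places were treated are not given in the sources used here. The deposited tag counts are raw reads per peak. The deposited score is minus 10 times log10 of the p, the deposited fold enrichment is the ratio of ChIP to local IgG background, and the deposited FDR is a percent from exchanging ChIP and IgG. Unique tags are tags left after duplicates were removed by the authors' peak caller. They numbered 67169672 (78.4% of tags) in the Mtf2-null CD71+Ter119+ H3K27me3 library and 20646036 in its IgG library.

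Members were selected with GENCODE M1 on NCBIM37, with 69963 TSS of 22367 protein-coding genes. The labels name the fractions and genotypes, 1 library each. Overlap meant 1 shared base. GC, CpG and 25-mers were read from NCBIM37 in 1 kb windows at summits, at every 4 bases, and counted on both strands of the 19 autosomes. The element was bounded where 25-mers with at least 10 places ceased. Intervals for shares are 95% Wilson intervals and those for medians are exact binomial order-statistic intervals. Both cover counting error only, tags amplified by PCR are not independent, and a count of 0 allows up to 3. No test was run, because each condition had 1 library. The interval and 25-mer steps were tested on simulated data. The alternatives covered the score, the FDR, the TSS window and set, the Mtf2 filter, joining of neighbours, the overlap, the position and the sequence window. Computations were run in Python 3.11.15 with pysam 0.24.0, numba 0.67.0, scipy 1.17.1, numpy 2.4.6 and pandas 2.3.3.

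The members, gene lists and measures were chosen with earlier results of these data known, and the 25-mer analysis was added after the sequences were seen. Named peaks were those over 5 kb (the 10 longest singly), the 5 highest fold enrichments and scores, the 3 with most tags, the highest-scoring shared with each list, the 2 on each side of a threshold, and the genes and gaps holding most summits, with up to 4 examples per gene list. Some genes and 1 summit sequence that this rule names are not reported here.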

Additional observations from a re-analysis of the deposited data

How the results depend on the processing

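No paired analysis was possible because each condition had 1 library. Of 132 values recomputed under 15 alternatives, 100 stayed within 1.5 times the count or inside the 95% interval of the reported value, and 32 moved outside. An FDR limit of 5% removed no peak, since the highest FDR was 1.16%. The values under that limit, and the share of members within it under every alternative, thus could not move and are among the 100. A score of at least 100 left 347 members with a median length of 2772 bases, 34 domains, a median fold enrichment of 5.73, GC content of 37.8% and CpG ratio of 0.157. Their shares were 0% overlapped by WT CD71+Ter119+ H3K27me3, 1.15% by Mtf2-null CD71+Ter119-/lo H3K27me3, 2.59% by CD71+Ter119+ Mtf2, 79.0% in no gene, 68.6% in repeated windows and 83.3% matching the element. Restricted to single-copy windows, an alternative chosen after seeing the data, 779 members remained with a median length of 846 bases, 0 domains, a fold of 5.39, GC content of 40.2%, a CpG ratio of 0.142, 68.5% in no gene and a TSS distance of 48361 bases. Of these, 1.93% were overlapped by WT CD71+Ter119+, 1.93% by Mtf2-null CD71+Ter119-/lo and 0.770% by WT CD71+Ter119-/lo H3K27me3, and 0.385% by CD71+Ter119+ Mtf2. A TSS window of 1 kb gave a median TSS distance of 83018 bases, and one of 10 kb gave 114090 bases with 78.8% in no gene. The share touched by CD71+Ter119+ Mtf2 was 0.866% when 50% of the member had to be covered and 0 by construction when such members were left out. Also chosen after seeing the data, a limit of 10 places gave 70.5% repeated windows, and limits of 10 and 200 element 25-mers gave 76.4% and 27% matching windows.

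Depth limits these values, as a deeper library reaches the cutoff of the peak caller at lower enrichment, and 1 library per condition was analysed here. Reads from copies of 1 repeat cannot be placed with certainty, and positions on repeated sequence are uncertain. The causes of the moves were not tested.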

Other observations

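Peaks of the same list on X and Y, which the definition of the members leaves out, are given as values. There were 662, with a median length of 1608 bases (95% interval 1499 to 1712) and a median fold enrichment of 5.17 (5 to 5.30). Places were counted on the autosomes only, and words with no autosomal place were left out of each window's median. On the words that remained, the median was 781 autosomal places, with 510 windows (77.0%, 73.7 to 80.1%) repeated and 3 single-copy. Sequence found only on X or Y does not enter these values, so they cannot be set beside the shares of the autosomal peaks. Over 5 kb there were 32 (4.83%), and the longest was 30303 bases.

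Within 1 Mb windows, members were densest on chromosome 17 from 92 to 93 Mb, with 10 in a window that holds no protein-coding gene, and on chromosome 4 from 4 to 5 Mb, with 10 beside *Impad1*, *Penk* and *Sdr16c6*. A window on chromosome 5 from 94 to 95 Mb held 8 members, 3 of them over 5 kb,. The cluster of *Serpinb* protease inhibitor genes on chromosome 13 from 33 to 34 Mb held 9.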
